A study of Mus musculus with 12 samples.

Results

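The genes of the mitochondrial protein import, membrane dynamics and quality control machinery were followed in brown adipose tissue of mice kept on 2 diets and at 2 temperatures. Members were all protein-coding genes whose symbol starts with Timm or Tomm followed by a number, together with named genes of mitochondrial fusion, fission, proteolysis and mitophagy. This gave 42 of the 61210 genes in the count table, of which 25 belong to import, 7 to dynamics and 10 to quality control. Of these, 40 had enough reads to be tested. Tomm20l had 0 counts in every library, which allows a level of up to 0.193 counts per 1000000 counts of the library (CPM) in the shallowest of the 12 libraries, and Timm8a2 had between 0 and 4 counts per library.

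Total RNA was sequenced from iBAT of wild type C57BL/6N mice at 20 weeks of age. The methods of the study call the tissue interscapular brown adipose tissue, whereas the design text calls it inguinal. Mice of the normal chow diet groups (NCD) ate chow throughout, and mice of the high-fat diet groups (HFD) changed from chow to HFD at 8 weeks of age for 12 weeks. Within each diet, 1 group stayed at room temperature (RT, 22 °C in the column names) and 1 group was housed at 4 °C for 24 h, so that the 4 groups NCD RT, NCD cold, HFD RT and HFD cold held 3 libraries each. Nothing in the labels says whether replicates were separate mice, and p-values then measure only the spread between these libraries. Replicates 1 and 2 form batch 1 and replicate 3 forms batch 2, as labelled.

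The mitochondrion makes few proteins itself, and nearly all others are translated in the cytosol and imported. They enter through the TOM complex of the outer membrane and are then passed on to the TIM23 complex, which serves the matrix and the inner membrane, or by the small TIM chaperones of the intermembrane space to the TIM22 complex, which inserts carrier proteins. Fusion and fission reshape the network, proteases degrade faulty or surplus proteins, and mitophagy removes whole organelles. Brown adipocytes hold many mitochondria, since heat is made there by uncoupled respiration through UCP1, a protein of the inner membrane.

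Library totals ranged from 15136861 to 46740702 counts, and each value below is given in CPM of the scaled library total. Brown adipocyte markers (Ucp1, Cidea, Dio2, Elovl3, Ppara, Cox7a1 and Prdm16) were detected in every library, with a summed level of 5851 to 22828 CPM. It was 19536 to 22828 CPM in NCD cold and 5851 to 7361 CPM in NCD RT, and 15478 to 18764 CPM in HFD cold and 8180 to 10202 CPM in HFD RT. Most of this sum was Ucp1, which alone measured 14942 to 18810 CPM in NCD cold. Of the 7 markers, 3 were called higher in the cold on each diet by edgeR, and the others were not called. Of all genes tested, 4.74% rose in the cold on NCD and 6.9% on HFD. Skeletal muscle markers (12 of 12 detected) summed to between 769 and 20485 CPM, and 1 library in each group stood apart by its high sum. These were NCD RT replicate 2 (18732 CPM), NCD cold replicate 2 (10347 CPM), HFD RT replicate 3 (20485 CPM) and HFD cold replicate 3 (6195 CPM). The muscle sum was also lower in the cold, with a group median of 3951 CPM in NCD RT and 1618 CPM in NCD cold. On HFD the group median was 2482 CPM at RT and 1060 CPM in the cold. The median log2 fold change of the 12 markers was -0.98 on NCD and -1.77 on HFD, with none called. Immune markers summed to 58.1 to 150 CPM and Schwann cell markers to 49.1 to 78.1 CPM. Apart from fits with a skeletal muscle score as a term, the part of these other cell types in the results below was not tested. For the members called in each comparison, the count without the 4 muscle-rich libraries is given as well.

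Across the 4 groups, 24 of the 40 tested members differed in edgeR's quasi-likelihood test at an adjusted p under 0.05, against 24.3% of all 16737 genes tested. By class, these were 17 import genes, 7 quality control genes and none of the 7 dynamics genes. Without the 4 muscle-rich libraries, Timm17a, Timm22, Timm8a1 and Tomm40l remained, so the count fell to 4. It was 15 without NCD RT replicate 2. In bulk tissue, a change in RNA per cell and a change in the share of cells that make it cannot be told apart.

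**Figure D1:**
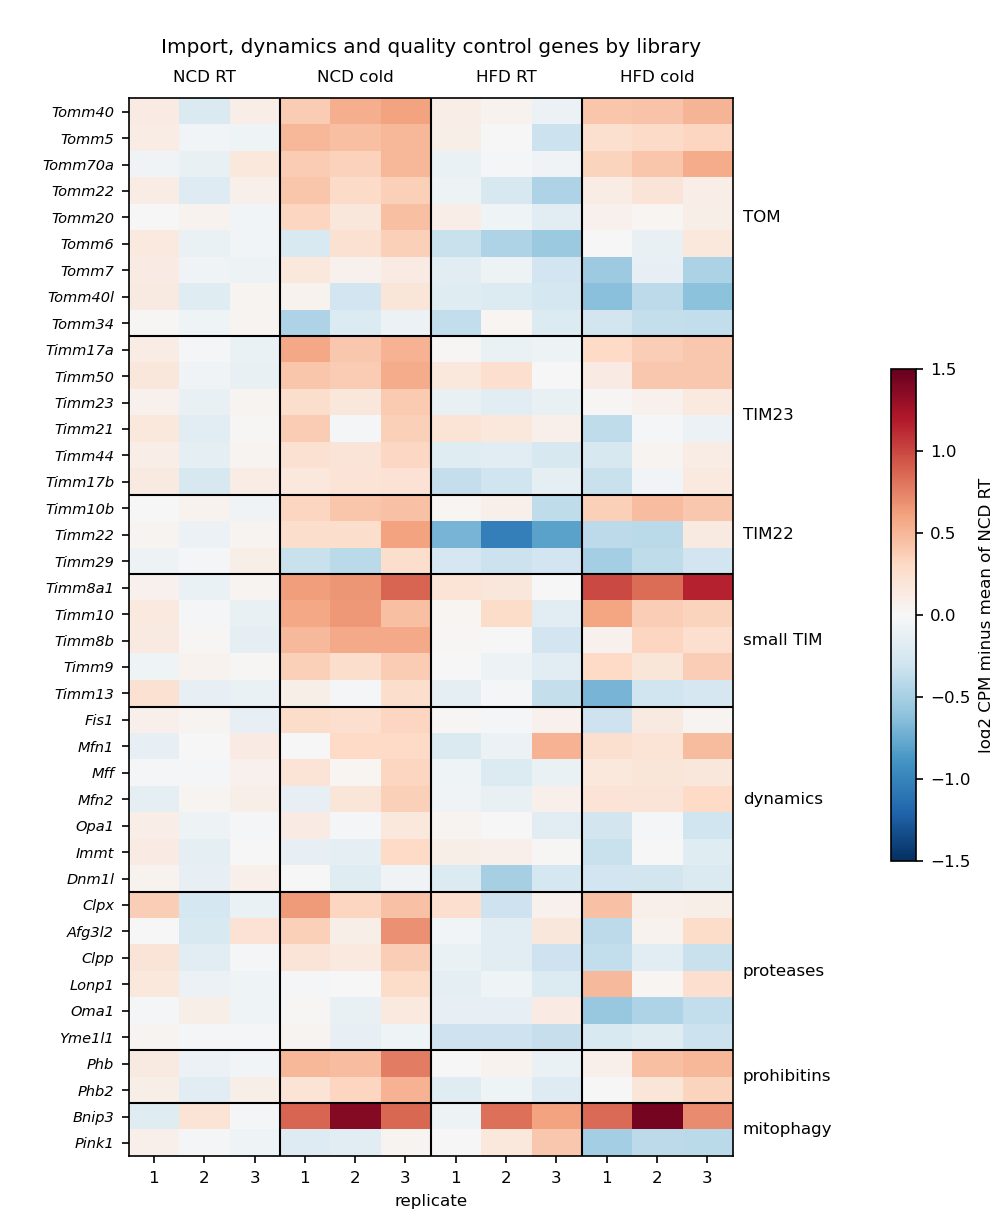
Expression of the 40 tested members in each of the 12 libraries, as log2 CPM minus the mean of the 3 NCD RT libraries of the same gene, grouped by complex or role. Most import genes are red in NCD cold and fewer are in HFD cold, where Tomm40l, Timm13 and Tomm7 are blue. The import gene Timm8a1 and the quality control gene Bnip3 are red most strongly, whereas Timm22 is blue in all 3 HFD RT libraries. The dynamics genes are mostly paler, although Mfn1 is red and Dnm1l blue in single HFD RT libraries.

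Cold on NCD raised 11 of 40 members and lowered none, where 4.74% of all genes tested rose, 2.68% fell and 7.42% were called in either direction. The 11 were 9 import genes, the prohibitin Phb and the mitophagy receptor Bnip3. The import genes had a median log2 fold change of 0.34 and the quality control genes of 0.29, whereas the median over all genes tested was -0.01. On HFD, cold raised 8 members and lowered 2, beside 6.9% of all genes that rose, 4.57% that fell and 11.5% called in either direction. All 8 that rose were import genes, which had a median of 0.30 there, and the median of all genes was -0.04. Timm17a, Timm9, Tomm70a, Tomm40 and Timm8a1 rose on both diets, which is 5 of the 11 genes raised on NCD and 5 of the 8 raised on HFD. The CPM of 20 members in NCD cold lay entirely above those in NCD RT (15.2% of all genes did so), and for 18 members this held on HFD (15.9% of all genes). In the reverse direction, the groups were separate for 1 member on NCD (Tomm34; 12.6% of all genes) and for 5 on HFD (14.4% of all genes).

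**Figure D2:**
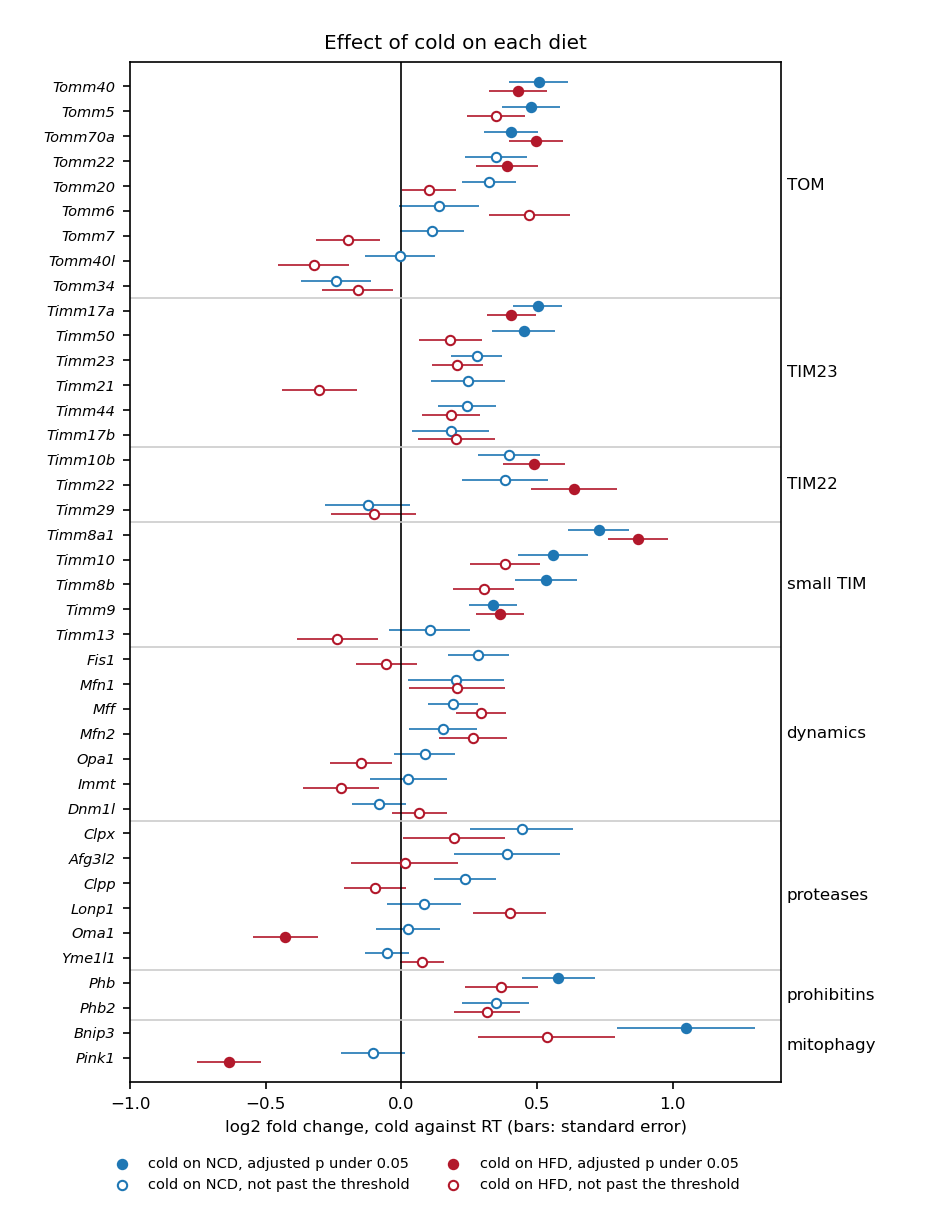
Log2 fold change of cold against RT for the 40 tested members on NCD (blue) and on HFD (red), with the standard error of the fit as bars. Filled points passed an adjusted p under 0.05, which were 11 members on NCD and 10 on HFD, and all filled points lie to the right of 0 except Pink1 and Oma1 on HFD.

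Promoters were examined because many import genes rose together. RefSeq promoters (GRCm38.p6) were available for 38 of the 42 members, all but Afg3l2, Timm21, Tomm40l and Tomm7, and the 250 bases before each start (any start, where a gene had several) were searched on both strands for 5 motifs. The ETS motif CCGGAAGT was found in 7 of 38 members (18.4%; 3.23% of 27025 genes), namely Fis1, Mfn1, Phb2, Timm23, Timm29, Timm8a2 and Tomm70a. Of the 14 genes that rose in the cold on either diet, 1 held it. The 27025 genes were all genes with a promoter, without a filter on expression, whereas most members were expressed. The shares therefore compare unlike sets, and their difference was not tested. The NRF1 motif, spelled by the capitals in the Opa1 sequence, was in Opa1 alone (0.877% of all genes) and the ERR motif TCAAGGTCA in Timm8b alone (0.422% of all genes). Neither the CRE motif TGACGTCA (1.77% of all genes) nor the CARE motif TGATGCAA (0.918%) was found in a member. The 3 promoters below are shown since they hold, in capitals, the ERR motif (Timm8b, chr9:50603651-50603900, plus strand), the ETS motif of the only gene with it that rose in the cold (Tomm70a, chr16:57121464-57121713, plus strand) and the NRF1 motif of a gene that was not called (Opa1, chr16:29579084-29579333, plus strand). The motifs begin 96, 80 and 59 bases before the start.
Timm8b: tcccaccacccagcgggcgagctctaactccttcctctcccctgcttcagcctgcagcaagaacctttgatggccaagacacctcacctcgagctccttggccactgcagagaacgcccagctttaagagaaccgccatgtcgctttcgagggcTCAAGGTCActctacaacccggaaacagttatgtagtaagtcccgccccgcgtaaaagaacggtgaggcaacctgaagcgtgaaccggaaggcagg
Tomm70a: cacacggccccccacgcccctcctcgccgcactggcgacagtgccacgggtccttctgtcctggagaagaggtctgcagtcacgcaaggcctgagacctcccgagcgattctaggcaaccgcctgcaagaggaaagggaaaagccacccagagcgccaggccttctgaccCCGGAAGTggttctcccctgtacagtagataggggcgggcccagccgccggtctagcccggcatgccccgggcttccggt
Opa1: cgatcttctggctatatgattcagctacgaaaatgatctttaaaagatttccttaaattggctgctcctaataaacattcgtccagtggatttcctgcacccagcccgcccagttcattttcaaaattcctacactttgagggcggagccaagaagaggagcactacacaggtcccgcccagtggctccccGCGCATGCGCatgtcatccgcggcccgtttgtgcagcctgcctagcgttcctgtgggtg
A match describes these letters and was not tested for binding.

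The small TIM chaperones, which guide hydrophobic precursors through the intermembrane space, held the member that was called in every fit on both diets. Timm8a1 (chromosome X, 134537256 to 134541865, minus strand, GRCm38) measured 38.1, 34.0 and 37.7 CPM in the 3 NCD RT libraries and 56.7, 58.0 and 67.1 CPM in NCD cold. On HFD it measured 42.3, 41.1 and 36.5 CPM at RT and 72.9, 65.2 and 81.1 CPM in the cold. All 6 cold libraries thus lay above all 6 RT libraries. The log2 fold change of cold was 0.73 ± 0.11 (SE) on NCD (edgeR adjusted p = 0.00407) and 0.87 ± 0.11 on HFD (edgeR adjusted p = 0.00114). Both calls were kept in all 12 fits that left out 1 library, in the libraries of batch 1 alone and without the muscle-rich libraries, where the changes were 0.71 and 0.73.

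Timm8b, a close relative of Timm8a1 whose promoter is printed above, is the member with the highest level per kilobase of exon in NCD RT (136 CPM per kb). It measured 77.4, 71.0 and 63.3 CPM in NCD RT and 98.2, 104 and 104 CPM in NCD cold. The HFD libraries held 71.1, 69.8 and 57.4 CPM at RT and 73.3, 87.7 and 83.4 CPM in the cold. The groups did not overlap on either diet. The rise was 0.53 ± 0.11 (SE) on NCD (edgeR adjusted p = 0.0172), and on HFD the difference of 0.30 ± 0.11 did not pass (edgeR adjusted p = 0.109). Its exons share 15.6% of their bases with Nkapd1 on the opposite strand, whose level was between 8.71 and 15.1 CPM.

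Timm9 and Timm10 form the hexamer that carries precursors to the inner membrane. Timm9 measured 39.7, 43.1 and 42.0 CPM in NCD RT and 53.2, 50.1 and 54.2 CPM in NCD cold. The HFD values were 41.9, 39.4 and 37.0 CPM at RT and 51.0, 47.2 and 53.6 CPM in the cold, so that cold and RT libraries were separate on both diets. The log2 fold changes were 0.34 ± 0.09 (SE; edgeR adjusted p = 0.0430) on NCD and 0.36 ± 0.09 (edgeR adjusted p = 0.0242) on HFD. The call on NCD was lost under a replicate block fitted separately on each diet (edgeR adjusted p = 0.0668) and in 10 of 12 fits that left out 1 library.

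Timm10 measured 34.6, 30.7 and 29.1 CPM in NCD RT and 47.0, 49.3 and 42.9 CPM in NCD cold. On HFD it measured 32.0, 38 and 28.0 CPM at RT and 47.4, 40.5 and 39.7 CPM in the cold. It rose on NCD by 0.56 ± 0.13 (SE; edgeR adjusted p = 0.0242), and the HFD groups were separate too, but their difference of 0.38 ± 0.13 did not pass (edgeR adjusted p = 0.0767). Timm13, the fifth tested chaperone, had differences of 0.10 on NCD and -0.24 on HFD, neither past the threshold. Thus 4 of 5 small TIM genes were called on NCD (7.42% of all genes tested) and 2 of 5 on HFD (11.5%).

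Of the 9 tested genes with a Tomm symbol, 3 rose in the cold on each diet. Of all genes tested, 4.74% rose on NCD and 6.9% on HFD. These 9 hold genes of the TOM complex, through which nearly all precursors enter, and the cytosolic co-chaperone Tomm34. Tomm40, the channel itself, measured 74.9, 59.3 and 74 CPM in NCD RT and 89.8, 101 and 105 CPM in NCD cold. It measured 73.8, 71.4 and 65.2 CPM in HFD RT and 92.2, 92.7 and 98.3 CPM in HFD cold. Every cold library was above every RT library. The log2 fold changes were 0.51 ± 0.11 (SE; edgeR adjusted p = 0.0176) on NCD and 0.43 ± 0.11 (edgeR adjusted p = 0.0270) on HFD.

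Tomm70a, whose promoter holds the ETS motif, encodes a receptor that takes up carrier precursors handed over by cytosolic chaperones. It measured 135, 129 and 156 CPM in NCD RT and 182, 177 and 196 CPM in NCD cold. The HFD libraries gave 130, 137 and 134 CPM at RT and 176, 186 and 205 CPM in the cold, again with no overlap. The changes were 0.40 ± 0.10 (SE; edgeR adjusted p = 0.0324) and 0.50 ± 0.10 (edgeR adjusted p = 0.00977). Only 4 of 12 fits that left out 1 library kept the call on NCD, whereas all 12 kept it on HFD.

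Tomm5, a small subunit of the channel, measured 76.0, 68.7 and 67.2 CPM in NCD RT and 99.6, 96.1 and 99.4 CPM in NCD cold. On HFD the values were 75.0, 70.8 and 56.4 CPM at RT and 83.1, 86.1 and 88.3 CPM in the cold. The groups were separate on both diets. The rise of 0.48 ± 0.11 (SE) passed on NCD (edgeR adjusted p = 0.0219), and the difference of 0.35 ± 0.11 on HFD did not (edgeR adjusted p = 0.0581), although it did with batch as a term. Of 12 fits that left out 1 library, 5 kept the call on NCD. Tomm22, the central receptor of the complex, showed the opposite order of calls. It measured 85.6, 69.3 and 83.4 CPM in NCD RT, 106, 96.5 and 101 CPM in NCD cold, 75.0, 67.0 and 57.3 CPM in HFD RT and 85.7, 90.7 and 84.7 CPM in HFD cold. Its rise of 0.39 ± 0.11 (SE) just passed on HFD (edgeR adjusted p = 0.0499), and its difference of 0.35 ± 0.11 did not pass on NCD (edgeR adjusted p = 0.0930), although neither pair of groups overlapped. The call on HFD was kept in 5 of 12 fits that left out 1 library.

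The other Tomm genes were not called in the cold. Tomm20, a receptor for precursors with a cleavable presequence, differed by 0.32 on NCD and 0.10 on HFD. Tomm6 and Tomm7, small subunits that respectively stabilise and loosen the complex in yeast, differed by 0.14 and 0.11 on NCD and by 0.47 and -0.20 on HFD. Of the exon bases of Tomm6, 76.0% are shared with Gm21981 on the same strand, which was counted at 0.353 to 1.93 CPM beside 20.9 to 39.5 CPM for Tomm6. Tomm34, a cytosolic co-chaperone with the lowest level per kilobase of the 40 members (5.91 CPM per kb in NCD RT), had the lowest value on NCD (-0.24).

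In the TIM23 complex, Timm17a led. It encodes a channel subunit whose protein is short-lived under stress. Timm17a (chromosome 1, 135295213 to 135313778, minus strand) measured 137, 126 and 118 CPM in NCD RT and 189, 168 and 182 CPM in NCD cold. On HFD it measured 129, 119 and 120 CPM at RT and 156, 164 and 168 CPM in the cold. The lowest cold library exceeded the highest RT library. The changes were 0.50 ± 0.09 (SE; edgeR adjusted p = 0.00863) on NCD and 0.41 ± 0.09 (edgeR adjusted p = 0.0162) on HFD, and the call on NCD was kept in all 12 fits that left out 1 library. The call on HFD was lost without HFD RT replicate 2 (edgeR adjusted p = 0.0634), HFD RT replicate 3 (0.0507) or HFD cold replicate 3 (0.0559). Timm50, the presequence receptor of the complex, rose on NCD from 59.6 ± 6.4 (SD, n = 3) to 81.4 ± 5.4 CPM, a change of 0.45 ± 0.12 (SE; edgeR adjusted p = 0.0390), which was kept in 3 of 12 fits that left out 1 library and lost with the skeletal muscle score as a term. On HFD it differed by 0.18. Timm23, Timm44, Timm21 and Timm17b were not called in the cold on either diet.

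The TIM22 complex inserts carriers such as the ATP/ADP exchanger. Of its 3 genes, 2 rose in the cold on HFD, where 6.9% of all genes tested rose. Timm22, its channel, measured 40.7, 37.1 and 40.6 CPM in NCD RT, 47.2, 47.3 and 59.7 CPM in NCD cold, 24.3, 19.4 and 22.6 CPM in HFD RT and 29.9, 29.9 and 43.1 CPM in HFD cold. The 3 HFD RT libraries were the lowest of all 12. Cold raised it by 0.64 ± 0.16 (SE) on HFD (edgeR adjusted p = 0.0267), and the difference of 0.38 ± 0.16 on NCD did not pass (edgeR adjusted p = 0.181). Timm10b, the small chaperone docked on Timm22, measured 36.6, 37.8 and 35.1 CPM in NCD RT, 45.8, 48.7 and 49.6 CPM in NCD cold, 37.2, 38.4 and 28.0 CPM in HFD RT and 46.9, 50.2 and 48.2 CPM in HFD cold. The cold libraries were higher on both diets, and the change passed on HFD (0.49 ± 0.12 (SE), edgeR adjusted p = 0.0210) but not on NCD (0.40 ± 0.12, edgeR adjusted p = 0.0613). Its exons share 10.5% of their bases with Gm45799 on the same strand, which was counted at 2.64 to 6.39 CPM. Timm29 was not called, with differences of -0.12 and -0.10.

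**Figure D3:**
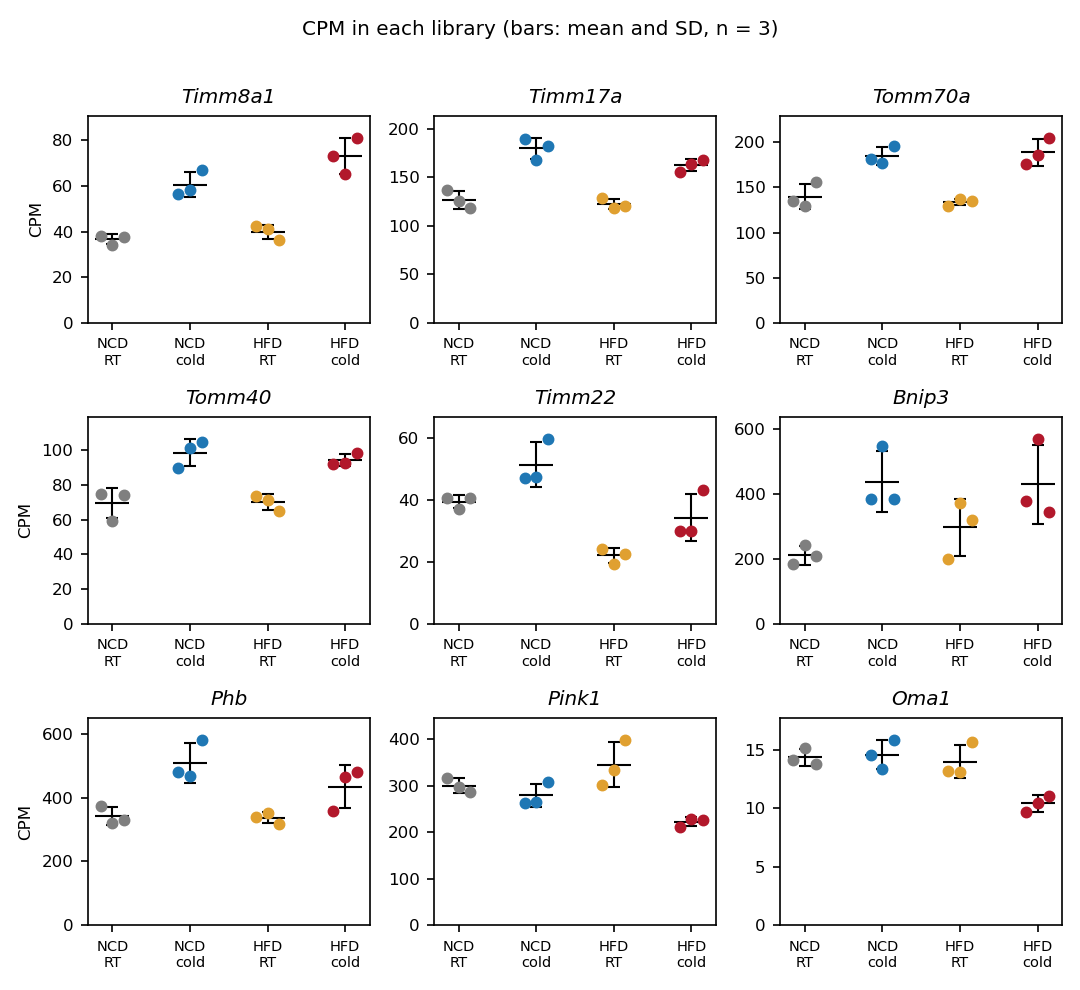
CPM of 9 members in each library, with the mean and SD of the 3 libraries of each group as bars and axes that start at 0. Timm8a1, Timm17a, Tomm70a and Tomm40 are higher in the cold on both diets without overlap, Timm22 is lowest in HFD RT, and Pink1 and Oma1 are lowest in HFD cold.

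Among the quality control genes, the prohibitins form a ring in the inner membrane that holds proteases and lipids. Phb measured 373, 320 and 331 CPM in NCD RT and 480, 468 and 581 CPM in NCD cold. On HFD it measured 339, 353 and 318 CPM at RT and 358, 465 and 481 CPM in the cold. The groups were separate on both diets. The rise on NCD was 0.58 ± 0.13 (SE; edgeR adjusted p = 0.0254), and the difference on HFD was 0.37 ± 0.13 (edgeR adjusted p = 0.101). Its partner Phb2 differed by 0.35 and 0.32, with edgeR adjusted p = 0.115 and 0.123.

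Bnip3, an outer membrane receptor that recruits the autophagy machinery and is known to be induced by low oxygen, had the largest change of all members on NCD. It measured 185, 242 and 207 CPM in NCD RT and 384, 545 and 382 CPM in NCD cold. On HFD, it measured 199, 371 and 318 CPM at RT and 377, 568 and 343 CPM in the cold. The groups were separate on NCD but overlapped on HFD, where HFD RT replicate 2 exceeded HFD cold replicate 3. The rise was 2.07-fold on NCD (log2 1.05 ± 0.26 (SE), edgeR adjusted p = 0.0305). On HFD the difference of 0.53 ± 0.25 did not pass (edgeR adjusted p = 0.197), but it did with the replicate number as a block (0.55 ± 0.15, edgeR adjusted p = 0.0426). The call on NCD was lost without any single NCD RT library or without NCD cold replicate 2 (0.86, edgeR adjusted p = 0.112).

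Pink1, a kinase that accumulates on damaged mitochondria and starts their removal, went the other way. It measured 317, 297 and 286 CPM in NCD RT and 263, 266 and 309 CPM in NCD cold, with overlap. On HFD it measured 302, 335 and 398 CPM at RT and 211, 229 and 226 CPM in the cold, without overlap, and the HFD cold libraries were the lowest of all 12. The fall by 0.64 on the log2 scale on HFD (SE 0.12, edgeR adjusted p = 0.00689) was kept in all 12 fits that left out 1 library, and the difference on NCD was -0.10 ± 0.12 (edgeR adjusted p = 0.684). The difference between these effects, tested as an interaction, was -0.53 ± 0.17 (unadjusted p = 0.00818, edgeR adjusted p = 0.606). HFD RT replicate 3, the highest library, was also the richest in skeletal muscle transcripts. Without it Pink1 fell by 0.52 (edgeR adjusted p = 0.0225), with the skeletal muscle score as a term by 0.59 (edgeR adjusted p = 0.0140), and without all 4 muscle-rich libraries by 0.53, which did not pass (edgeR adjusted p = 0.0779).

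Of the 6 proteases, none was called in the cold on NCD (7.42% of all genes tested were) and 1 on HFD (11.5%). Oma1, a stress-activated protease of the inner membrane that cleaves the fusion protein OPA1, measured 14.3 ± 0.7 (SD, n = 3), 14.6 ± 1.3, 14 ± 1.4 and 10.4 ± 0.7 CPM in NCD RT, NCD cold, HFD RT and HFD cold. It fell by 0.43 on the log2 scale in the cold on HFD (SE 0.12, edgeR adjusted p = 0.0408). On NCD it differed by 0.02. The call on HFD was lost in 11 of 12 fits that left out 1 library. Clpp and Clpx (the matrix protease and its unfoldase), Lonp1, Afg3l2 and Yme1l1 were not called in the cold, with differences from -0.05 (Yme1l1) to 0.44 (Clpx) on NCD. Clpx passed on NCD with the replicate number as a block (0.46 ± 0.11 (SE), edgeR adjusted p = 0.0333).

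None of the 7 members of fusion, fission or cristae shape was called by edgeR across the 4 groups, where 24.3% of all genes tested were. None was called in the cold on NCD (7.42% of all genes) or on HFD (11.5%). The same held for HFD against NCD at RT (2.16% of all genes) and in the cold (5.31%). With 7 genes, the absence of calls does not set this class apart from all genes. The median log2 fold change of the 7 genes was 0.15 in the cold on NCD, with values from -0.08 (Dnm1l) to 0.28 (Fis1), and 0.07 on HFD, with values from -0.22 (Immt) to 0.29 (Mff). Mff, which recruits the fission GTPase encoded by Dnm1l, had the smallest p of the class across the 4 groups. It measured 100, 101 and 107 CPM in NCD RT, 118, 105 and 129 CPM in NCD cold, 97.9, 89.1 and 95.8 CPM in HFD RT and 115, 116 and 115 CPM in HFD cold. The NCD groups overlapped and the HFD groups did not, and the test across the 4 groups gave an edgeR adjusted p = 0.0623. Calls in this class appeared with other settings. Mff passed in the cold on HFD and across the 4 groups by DESeq2, with batch as a term, with the replicate number as a block over all libraries and without NCD cold replicate 2, and without NCD cold replicate 3 it passed in the cold on HFD alone. Dnm1l was lower on HFD at RT by DESeq2, and it passed across the 4 groups by DESeq2 and with the block over all libraries. Fusion genes Opa1, Mfn1 and Mfn2 had differences of 0.09, 0.20 and 0.15 on NCD and -0.15, 0.21 and 0.26 on HFD. Immt, the core of the MICOS complex that shapes cristae, had the highest CPM of all members (640.5 to 994 CPM).

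Between the diets, 1 of 40 members was called at RT (2.16% of all genes tested) and 4 of 40 in the cold (5.31%). At RT, Timm22 alone was called, where 2.16% of all genes tested were called, 1.15% lower and 1.01% higher. For 9 members all HFD RT libraries lay below all NCD RT libraries (12.9% of all genes), and for none above (13% of all genes). Its CPM values, given above, did not overlap between NCD RT and HFD RT, and it fell by 0.84 on the log2 scale (SE 0.16, edgeR adjusted p = 0.0228), to 0.560 of its NCD level. In the cold its difference was -0.58 ± 0.16 (edgeR adjusted p = 0.0567), which passed by DESeq2, with batch as a term and with the replicate number as a block over all libraries. The call at RT was kept in 7 of 12 fits that left out 1 library and lost without any NCD RT library or without HFD RT replicate 2 or 3, where edgeR adjusted p rose to at most 0.0984. Without NCD cold replicate 3, Yme1l1 was called as well.

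In the cold, 4 members were lower on HFD than on NCD and none was higher, while 3.07% of all genes tested were lower, 2.23% higher and 5.31% called in either direction. Clpp, the proteolytic chamber of the matrix, measured 88.5, 85.7 and 100 CPM in NCD cold and 59.6, 69.4 and 61.5 CPM in HFD cold. At RT it measured 88.1, 68.8 and 76.3 CPM on NCD and 72.3, 69.2 and 62.5 CPM on HFD. Thus the diets were separate in the cold and overlapped at RT. In the cold it fell by 0.53 on the log2 scale (SE 0.11, edgeR adjusted p = 0.0273), and at RT the difference was -0.19 (edgeR adjusted p = 0.403).

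Tomm40l, a paralogue of the channel Tomm40, measured 81.0, 63.9 and 88.5 CPM in NCD cold and 50.3, 59.4 and 50.7 CPM in HFD cold. At RT it measured 85.7, 68.7 and 79.8 CPM on NCD and 68.5, 67.5 and 64.8 CPM on HFD. All HFD libraries lay below the NCD libraries of the same temperature. It fell by 0.54 on the log2 scale in the cold (SE 0.13, edgeR adjusted p = 0.0395). The exons of Tomm40l share 64.3% of their bases with Nr1i3 on the opposite strand, but Nr1i3 was counted at no more than 0.135 CPM in any library.

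The other members lower on HFD in the cold were Oma1, which fell by 0.49 on the log2 scale (SE 0.12, edgeR adjusted p = 0.0410), and Tomm7, which fell by 0.48 (SE 0.12, edgeR adjusted p = 0.0411) from 80.1 ± 2.9 (SD, n = 3) to 57.3 ± 9.4 CPM. Over the 40 tested members the median difference was -0.20 and 6 were above 0. For 18 members all HFD cold libraries lay below all NCD cold libraries, beside 13.1% of all genes, and for none did they lie above (12.1% of all genes). Between the same groups the summed level of 4 adipocyte markers was 10162 to 12036 CPM in NCD cold and 6339 to 8178 CPM in HFD cold, with 1 of the 4 called lower. The summed level of 3 endothelial markers was 579 to 681 CPM and 775 to 916 CPM, with none of the 3 called by edgeR. The summed level of 8 immune markers was 58.1 to 78.2 CPM in NCD cold and 76.7 to 150 CPM in HFD cold. Of the 7 immune markers tested, 1 was called higher, and their median log2 fold change was 0.72. The part of any of these cell types in these differences was not tested. These calls rested on few libraries. None of the 4 was kept without NCD cold replicate 1, NCD cold replicate 3, HFD cold replicate 1 or HFD cold replicate 3, where the largest edgeR adjusted p was 0.175, and in the fit without muscle-rich libraries the call was Timm22.

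**Figure D4:**
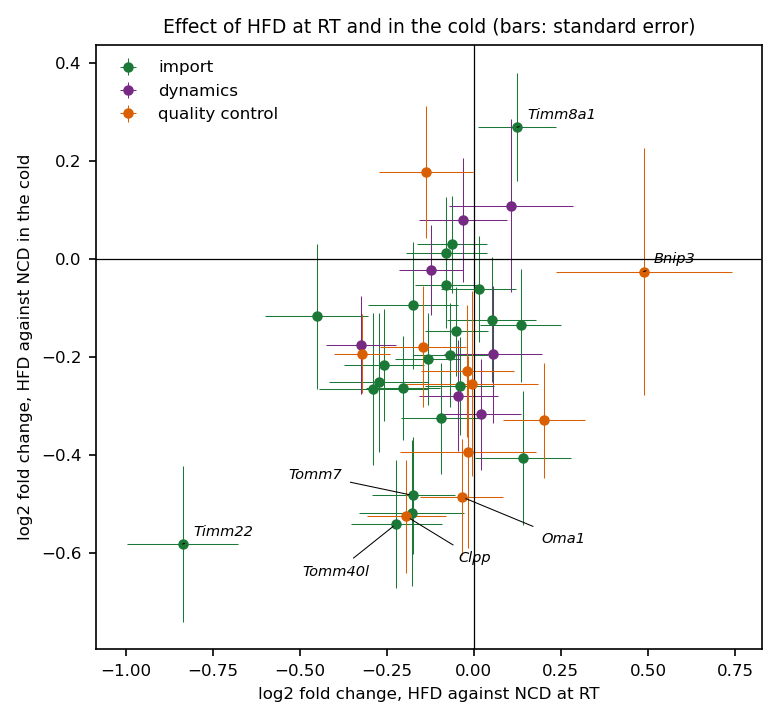
Log2 fold change of HFD against NCD at RT (horizontal) and in the cold (vertical) for the 40 tested members, coloured by class, with standard errors as bars. Most points lie below the horizontal line at 0, with 6 of 40 above it, and Timm22 stands apart at -0.84 at RT.

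Whether cold acted differently on the 2 diets was tested as an interaction. No member passed, and neither did any of the 16737 genes (edgeR). At an unadjusted p under 0.05 there were 3 members, Pink1, Timm21 and Oma1, beside 6.52% of all genes. DESeq2 called 62 genes, none of them a member. Genes called on 1 diet only are therefore not shown to respond differently between diets.

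Several members come as pairs of paralogues, and their ratio within a library does not depend on library scaling. Ratios of counts were compared between cold and RT by an exact two-sided permutation within diet (400 arrangements, smallest possible p = 0.005), adjusted over 5 pairs; this comparison was added after the data were seen. The log2 ratio of Tomm40 to Tomm40l was -0.19, -0.21 and -0.11 in NCD RT, 0.15, 0.66 and 0.24 in NCD cold, 0.11, 0.08 and 0.01 in HFD RT and 0.87, 0.64 and 0.95 in HFD cold. It was higher by 0.64 on average in the cold, without overlap on either diet (exact permutation, adjusted p = 0.025). Timm8a1 was higher relative to Timm8b by 0.38 (exact permutation, adjusted p = 0.0375), with overlap on NCD but not on HFD, and Timm17a relative to Timm17b by 0.26 (exact permutation, adjusted p = 0.0417). The latter groups overlapped on both diets. Phb relative to Phb2 differed by 0.14 (exact permutation, adjusted p = 0.05, not under the threshold) and Mfn1 relative to Mfn2 by 0.02 (exact permutation, adjusted p = 0.875). With cold and RT libraries paired by replicate number within diet, likewise added after the data were seen, exact sign flips of 6 differences cannot give less than p = 0.03125, and no ratio passed after adjustment (exact adjusted p = 0.0781 for Tomm40 and for Timm8a1, each higher in 6 of 6 pairs, and 0.104 for Timm17a, higher in 5 of 6). How reads were divided between the genes of a pair was not tested.

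**Figure D5:**
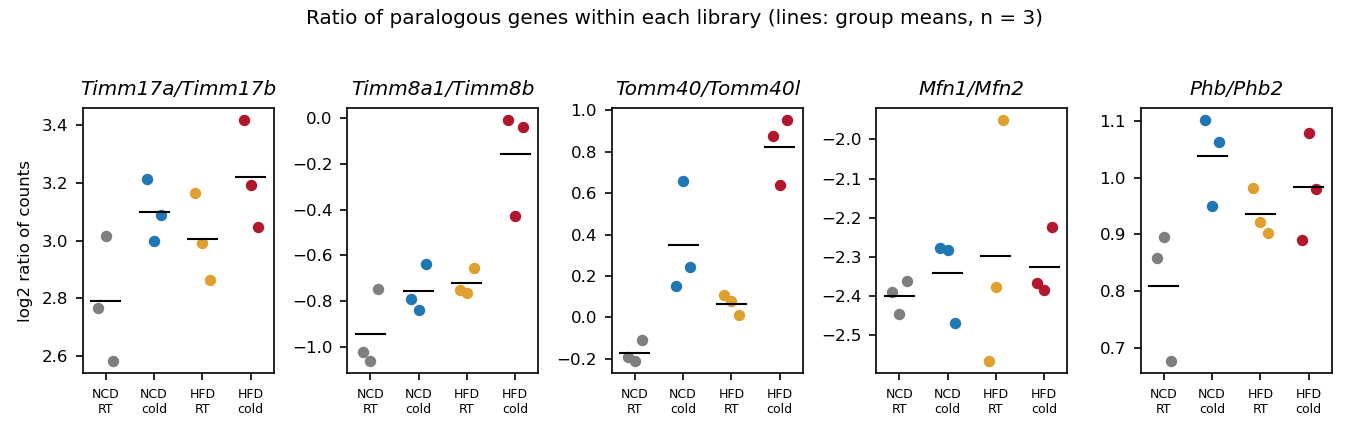
Log2 ratio of the counts of 2 paralogous genes in each of the 12 libraries, with group means as lines; each panel has its own vertical scale. The Tomm40 to Tomm40l ratio is below 0 in all NCD RT libraries and between 0.64 and 0.95 in HFD cold, whereas the Mfn1 to Mfn2 ratio has overlapping groups.

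Genes of the same pathways outside the members were counted from lists of import, dynamics and quality control genes. Of 22 further import genes, 7 rose in the cold on NCD, where 4.74% of all genes tested did. They included Chchd4, the oxidoreductase that folds small TIM proteins in the intermembrane space (0.59 ± 0.09 (SE), edgeR adjusted p = 0.00321), Pam16 of the import motor (0.60 ± 0.10, edgeR adjusted p = 0.00734) and the matrix co-chaperonin Hspe1 (0.72 ± 0.16, edgeR adjusted p = 0.0221). The other 4 were Hspd1, Grpel1, Grpel2 and Mtx2. On HFD, where 6.9% of all genes rose, 3 did, Chchd4 (0.45), Pam16 (0.44) and the nucleotide exchange factor Grpel2 (0.50). Immp2l, a peptidase of the inner membrane, fell by 1.17 on the log2 scale (SE 0.21, edgeR adjusted p = 0.00614), as 4.57% of all genes fell.

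Of 21 further dynamics genes tested, 5 rose in the cold on NCD (4.74% of all genes) and 3 on HFD (6.9%). The ubiquitin ligase March5 of the outer membrane rose by 0.61 ± 0.10 (SE) on NCD (edgeR adjusted p = 0.00473) and by 0.58 ± 0.10 on HFD (edgeR adjusted p = 0.00421). Slc25a46, an outer membrane protein of the carrier family, rose by 0.40 and 0.45. The others were Pld6, Rhot2 and Stoml2 on NCD and Miga1 on HFD. Mtfp1, an inner membrane protein that promotes fission, was lower on HFD at RT (1.15% of all genes were lower), from 53.2 ± 4.7 (SD, n = 3) to 36.3 ± 4.0 CPM (edgeR adjusted p = 0.0246), and in the cold (3.07% of all genes), from 60.2 ± 3.7 to 35.9 ± 1.6 CPM (edgeR adjusted p = 0.00403). Of 19 further quality control genes tested, none was called in the cold on NCD by edgeR (7.42% of all genes were), where 6 had an unadjusted p under 0.05. On HFD, where 11.5% of all genes were called, Atf5, a transcription factor of the mitochondrial stress response, rose by 1.11 ± 0.28 (SE; edgeR adjusted p = 0.0283). The protease subunit Spg7 fell by 0.56 on the log2 scale (SE 0.13, edgeR adjusted p = 0.0211).

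The number of calls depended on single libraries. In the cold on NCD it was 2 of the 11 without NCD RT replicate 2 (Timm17a and Timm8a1), 3 without NCD cold replicate 2, 4 without NCD RT replicate 3, 5 without NCD cold replicate 3, 6 without NCD cold replicate 1 and 7 without HFD cold replicate 3. Of the 12 such fits, 9 kept Phb, Tomm40 and Timm8b, and 8 kept Timm10 and Bnip3. On HFD it was 3 without HFD cold replicate 3, 4 without HFD RT replicate 3 and 5 without HFD RT replicate 2, and Timm10b was kept in 10 fits, Timm22 in 9, Timm9 in 8 and Tomm40 in 7. Without the 4 muscle-rich libraries only Timm8a1 was called in the cold on each diet, and the same held in batch 1 alone. With the skeletal muscle score as a term, 18 members were called across the 4 groups, 9 in the cold on NCD and 8 on HFD. Timm9 and Timm50 were lost on NCD. On HFD, Tomm22, Tomm40 and Oma1 were lost and Tomm40l was called. Batch 2 holds 1 library per group and allows no test. With a minimum absolute log2 fold change of 0.5 the calls were 7 in the cold on NCD (6.27% of all genes tested), 3 in the cold on HFD (9.58%), 1 for HFD at RT (2.09%) and 2 for HFD in the cold (4.75%). All 26 called differences had the same sign in batch 1 and in batch 2, and in each fit that left out libraries. For each of them the compared groups did not overlap, so a subset of the libraries could hardly give another sign. The shared sign is therefore no further support.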

How the data were processed

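Total RNA of 12 libraries was sequenced. Per the study's methods, the authors trimmed reads with cutadapt and quantified them with salmon against GENCODE M22 transcripts, combined at the gene level with RNAcentral for this data set; whether strand was used is not given in the sources used here. GRCm38 and DESeq2 are named in the submitters' processing notes. The deposited table holds estimated counts per gene as whole numbers, and these were rounded to integers without change.

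Counts were tested with edgeR 4.0.16 in R 4.3.3 (quasi-likelihood F test, TMM scaling, filterByExpr with a minimum count of 10, 4 group means, all 12 libraries in a single fit). P-values were adjusted by Benjamini-Hochberg over all 16737 genes tested, and a gene was called at an adjusted p under 0.05, with no minimum fold. Standard errors are the log2 fold change divided by the square root of F. CPM use TMM-scaled totals, which were 15136861 to 46740702 counts before scaling, and intervals and floors (3 counts) cover counting error only. CPM per kb divides by merged exons of GENCODE M21. The edgeR fit was tested on simulated counts with genes changed in NCD cold and no batch, pairing or muscle differences. Alternatives were DESeq2 1.42.0, its size factors, no filter, batch, replicate blocks, a skeletal muscle score, fewer libraries and a minimum fold.

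Samples with the same replicate number deviated together between cold and RT within each diet (correlations of 0.219, 0.456 and 0.281 on NCD and 0.155, 0.217 and 0.386 on HFD). The highest correlations with another number were 0.0301, -0.223 and 0.0439 on NCD and 0.106, 0.134 and -0.246 on HFD. For replicates 1 and 2 on HFD the margin was thus small. Numbers were taken to pair cold and RT libraries within each diet. Between diets, replicate 1 also deviated together (0.365 at RT, 0.196 in the cold). Replicates 2 and 3 did not (-0.180 and -0.0385 at RT, -0.211 and 0.0387 in the cold). The muscle-rich libraries also share a number within each diet (replicate 2 on NCD, replicate 3 on HFD). The part of muscle or batch in these correlations was not tested. CPM of each library are printed for the 16 members with the smallest p across the 4 groups and for the first of each class. Members and lists were chosen with earlier results of these data known. The result of 1 gene of the quality control list is not reported here.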

Additional observations from a re-analysis of the deposited data

How the results depend on the processing

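All 26 called differences kept their direction under every alternative tried, and 26 stayed past the threshold with DESeq2 or with batch as a term. Since the compared groups of each did not overlap, the kept direction is no further support. Counts of called members that moved by more than 1.5 times are as follows. With DESeq2, 3 members were called for HFD at RT and 7 for HFD in the cold. Without the filter on counts, there were 15 across the 4 groups, 7 in the cold on NCD, 5 in the cold on HFD and 0 for HFD in the cold. In batch 1 alone, with 8 libraries, these counts were 3, 1, 1 and 0, and 0 for HFD at RT. With only the 6 libraries compared, 3 remained in the cold on HFD and 0 for HFD in the cold. With a minimum absolute log2 fold change of 0.5, they were 7 in the cold on NCD, 3 in the cold on HFD and 2 for HFD in the cold. Leaving out the muscle-rich library of each group, an alternative added after the data were seen, gave 4 across the 4 groups, 1 in the cold on NCD, 1 in the cold on HFD, 0 for HFD at RT and 1 for HFD in the cold. Leaving out 1 library at a time gave 15 to 21 across the 4 groups, 2 to 12 in the cold on NCD, 3 to 11 in the cold on HFD, 0 to 2 for HFD at RT, 0 to 4 for HFD in the cold and 0 to 0 for the interaction. With the replicate block within diet, 11 members were called in the cold on NCD and 11 on HFD, with changed calls for Timm9, Clpx and Bnip3 only, and with the block over all libraries 24 were called across the 4 groups. Pairing cold and RT by replicate number left no paralogue ratio past the threshold (smallest exact adjusted p = 0.0781), where 3 passed without it. The cause of these moves was not tested. Some of the fits also held fewer libraries, and the part of this was not tested either. With 3 libraries per group, a call that misses the threshold does not show that a gene did not change.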
